A study of Mus musculus with 8 samples.

Results

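Chromatin accessibility was examined around 10 mouse genes that encode NF-κB subunits and proteins that control them. They are the subunits Rel, Rela, Relb, Nfkb1 and Nfkb2, the inhibitors Nfkbia and Nfkbie, the ubiquitin-editing protein A20 (Tnfaip3) with its partner ABIN1 (Tnip1), and the kinase NIK (Map3k14). These were 10 of 21883 protein-coding genes in the gene table. A region of open chromatin was assigned to a gene when its centre lay in the gene body on mm10, or within 50 kb of the gene with one of its ends as the nearest end of any protein-coding gene. This assigned 144 of 128057 regions. Of these, 16 overlapped the window of 1 kb on each side of a gene end, and 128 were distal, meaning that they touched no such window of any protein-coding gene. The gene table gives gene starts and ends but no exons, so positions are given as inside or outside the gene.

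NF-κB is a family of dimeric transcription factors held in the cytoplasm by IκB proteins until receptors for cytokines or microbial products trigger IκB degradation. The canonical route releases dimers of RelA, c-Rel and p50. The slower non-canonical route works through NIK, which leads to processing of the Nfkb2 product p100 and frees RelB. IκBα and A20 are themselves induced by NF-κB and switch it off again, and in dendritic cells NF-κB drives the maturation programme of migration, co-stimulation and cytokine secretion.

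The cells were type 1 conventional dendritic cells (cDC1s), the subset specialised in cross-presenting antigen to CD8 T cells. They were sorted from B16-OVA tumours, a transplanted melanoma that expresses the model antigen ovalbumin, growing in wild-type mice. ATAC-seq, in which a transposase tags open DNA, gave 4 libraries from day 7 and 4 from day 21 after tumour inoculation. The labels give neither strain nor age of the mice and do not say whether each library is a different animal. The p values therefore reflect only library-to-library spread, which may be technical.

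Day 7 libraries held 9440223 to 16063736 counts in regions and day 21 libraries 14021151 to 27737040. Values are CPM, the count of a region scaled to a fixed library total with TMM factors. Over all genes with a tested gene-end sum, 6.71% were higher and 24.6% lower at day 21, with a median log2 fold change of -0.09. For distal sums 19.2% were higher and 11.4% lower, with a median of 0.04. As a check of the labelled cell type, 8 of 9 cDC1 marker genes had a tested region at their ends (Itgae had none), with summed levels of 287 to 310 CPM at day 7 and 298 to 330 CPM at day 21. In distal regions 5 of 8 cDC1 markers were higher and 1 lower (Xcr1 had no region), and the sums separated the days, at 1355 to 1440 CPM and 1565 to 1707 CPM. The T and NK cell markers summed to 98.5 to 112 CPM at day 7 and 84.1 to 99 CPM at day 21 over their gene ends. Melanoma markers, of which 4 were tested at gene ends, summed to 126 to 139 CPM at day 7 and 116 to 131 CPM at day 21. Their median log2 fold change was -0.70 while the sum changed little, so the sum does not stand for each gene. A lower value in such bulk libraries can come from fewer cells with the region open or from a less open region per cell, and these cannot be told apart.

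The promoters of several members carry matches to the κB consensus, the degenerate 10-base pattern that NF-κB dimers bind. 8 of the 10 members were found in the RefSeq promoter table of the same assembly (GRCm38), with 11 annotated start sites among them. Both strands of the 250 bases before each start were searched. A match was present for 6 members (Rel, Nfkb2, Nfkbia, Nfkbie, Tnfaip3 and Tnip1) and for 8 of the 11 windows, and absent from these windows for Rela and Map3k14. Of all 21262 promoters in the table, 4.18% had a match. The sequences below show where the matches sit in the 130 bases before 1 start of each of the 6 genes, 5′ to 3′ on the gene's strand, with the κB matches in capitals and overlapping matches merged. The names give the mm10 position and the strand.
Nfkb2, chr19:46304607-46304736, plus strand: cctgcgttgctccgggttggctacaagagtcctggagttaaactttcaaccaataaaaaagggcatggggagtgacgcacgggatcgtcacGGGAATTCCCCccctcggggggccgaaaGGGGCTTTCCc
Nfkbia, chr12:55492648-55492777, minus strand: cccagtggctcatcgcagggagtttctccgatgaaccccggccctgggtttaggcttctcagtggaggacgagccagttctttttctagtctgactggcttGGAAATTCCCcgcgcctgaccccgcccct
Nfkbie, chr17:45555570-45555699, plus strand: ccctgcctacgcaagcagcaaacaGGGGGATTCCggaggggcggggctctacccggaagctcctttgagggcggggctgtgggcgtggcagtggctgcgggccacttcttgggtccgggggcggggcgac
Rel, chr11:23770970-23771099, minus strand: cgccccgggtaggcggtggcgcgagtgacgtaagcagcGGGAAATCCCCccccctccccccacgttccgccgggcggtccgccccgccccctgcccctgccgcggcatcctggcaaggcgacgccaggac
Tnfaip3, chr10:19015411-19015540, minus strand: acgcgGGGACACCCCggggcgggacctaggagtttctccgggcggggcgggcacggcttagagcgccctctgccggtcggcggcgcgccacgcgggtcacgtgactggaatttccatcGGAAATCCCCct
Tnip1, chr11:54962941-54963070, minus strand: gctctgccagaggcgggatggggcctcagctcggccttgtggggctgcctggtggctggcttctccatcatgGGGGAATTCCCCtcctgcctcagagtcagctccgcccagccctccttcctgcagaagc
The Nfkb2 stretch held 2 separate κB matches within 39 bases of its start and the Tnfaip3 stretch also held 2, 1 of them ending 3 bases before the start. The match in Nfkbia lay 29 to 20 bases before the start and that in Tnip1 within the window from 58 to 47 bases before it. The AP-1 motif TGANTCA, searched on both strands, was in 3 of the 11 windows and in 6.13% of all promoters. A match describes the letters and says nothing of binding in these cells.

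Summed over the gene ends, Rel, Relb, Map3k14 and Tnip1 were lower at day 21. Tnip1 had the largest log2 fold change, -0.90, and those of the other 3 were -0.25, -0.26 and -0.32. 9 members had a region at an end, and by edgeR's quasi-likelihood test with Benjamini-Hochberg adjustment 4 of these 9 gene-end sums were lower, against 24.6% of all genes tested, and 0 were higher. The count higher was also 0 at an unadjusted p under 0.05 and 0 by DESeq2. The median log2 fold change of the 9 was -0.15 against -0.09 for all genes. The remaining member, Nfkb2, had no region at its annotated ends.

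Rel encodes c-Rel, a subunit that lymphoid and dendritic cells rely on for cytokine genes. Its gene-end sum was 126, 125, 134 and 124 CPM in the day 7 libraries (replicates 1 to 4) and 116, 105, 103 and 105 CPM at day 21. Every day 21 library was below every day 7 library, a log2 fold change of -0.25 ± 0.05 (SE, n = 4 per day, adjusted p = 2.98e-04, edgeR's quasi-likelihood test). The loss was in the region over the start, chr11:23770173-23771632, which holds the promoter printed above and fell from 107 ± 3.18 to 87.8 ± 5.59 CPM (mean ± SD, n = 4). The neighbouring region 1.16 kb into the gene did not pass (-0.03). Of the upstream flank, 2 regions also fell. The weaker, chr11:23786271-23786718 at 15.5 kb, was chosen after its value was seen. Its level went from 3.21 ± 0.541 to 1.44 ± 0.213 CPM (log2 -1.17 ± 0.27, adjusted p = 9.77e-04). The region 35 kb upstream (chr11:23805717-23806257) had 13.6, 14.8, 15.2 and 10.8 CPM at day 7 and 8.51, 10.2, 9.78 and 8 CPM at day 21, a fall of 0.57 ± 0.13 on the log2 scale (adjusted p = 8.87e-04). Inside the gene, 17.7 kb from the start, a region (chr11:23752944-23753600) rose from 17.5 ± 0.87 to 22.2 ± 1.32 CPM (log2 0.34 ± 0.10, adjusted p = 0.00793). Of the 16 distal regions of Rel, 1 was higher and 2 lower, against 10.1% and 8.44% of all distal regions. The distal sum of Rel stayed at a log2 fold change of -0.04 (adjusted p = 0.555).

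Rela and Nfkb1, which encode the subunits p65 and p105/p50 of the classical dimer, had gene-end sums that did not pass. The Rela gene-end sum was 42.6, 51.4, 46.3 and 44.9 CPM at day 7 and 38.6, 42.1, 47.2 and 38.9 CPM at day 21. The days overlapped and the test was not passed (-0.15, adjusted p = 0.111), although without day 21 replicate 3, the highest of that day, it was (-0.23, adjusted p = 0.0151). Rela had 6 regions in all. Only 1 of them passed, a weak region 1.51 kb beyond an end (chr19:5649468-5649812) at 2.25 ± 0.483 CPM at day 7 and 3.63 ± 0.68 CPM at day 21 (log2 0.68, adjusted p = 0.0372). That call was lost with DESeq2 (0.0529) and without day 7 replicates 2 or 3 or day 21 replicates 1 or 4 (adjusted p from 0.073 to 0.129).

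Nfkb1 was the largest locus, with a gene of 107 kb and 36 regions. Its gene-end sum did not pass (log2 0.04, adjusted p = 0.681). Its distal sum was 318, 298, 309 and 303 CPM at day 7 and 352, 332, 340 and 316 CPM at day 21. Day 21 replicate 4 lay below day 7 replicate 1, and the other day 21 libraries lay above all day 7 libraries. The distal sum rose by 0.13 ± 0.04 (log2, adjusted p = 0.0193), the only distal sum of the 10 that was higher, against 19.2% of all genes. The call was lost without day 7 replicate 2 (0.0607), day 7 replicate 4 (0.0655), day 21 replicate 1 (0.0819) or day 21 replicate 2 (0.0586), and the log2 fold change was 0.02 with offsets that follow the level (adjusted p = 0.748). Of 35 tested regions 4 rose and 2 fell, against 9.49% higher and 9.85% lower of all regions. The 4 that rose all lay in the gene body, as did most regions of the locus. The clearest, at chr3:135628042-135629265 and 44 kb from the nearer end, had 30.8, 28.5, 31.2 and 30.8 CPM at day 7 and 45.7, 38.6, 44.6 and 37.5 CPM at day 21 (log2 0.45 ± 0.08, adjusted p = 1.43e-05). All its day 21 values were above all its day 7 values. Next to it, chr3:135629891-135630371 rose from 17.5 ± 1.43 to 23.1 ± 3.71 CPM, a region chosen after its value was seen. Closer to the same end, at 12.5 kb, chr3:135596877-135597365 rose from 14.5 ± 0.8 to 19.5 ± 0.945 CPM (log2 0.42, adjusted p = 0.0018). In the same body, chr3:135665730-135666553 fell from 10.1 ± 1.24 to 6.51 ± 2.12 CPM (log2 -0.65, adjusted p = 0.00201), and the ranges of the days overlapped. The other region that fell, chr3:135578912-135579726 beyond an end (log2 -0.58, adjusted p = 0.0267), lost its call with DESeq2 (0.061), when thinned to equal depth (0.0793) and without day 7 replicate 3 (0.275), whose 9.27 CPM was the highest of that day. It also lost it without day 21 replicate 3 (0.0793) or day 21 replicate 4 (0.14).

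In the non-canonical branch the Relb and Map3k14 ends lost accessibility, and no region of Nfkb2 passed. Relb had 4 regions, and the one at its higher-coordinate end, chr7:19628249-19629683, held 91.3 to 92.7% of the locus counts at day 7. It had 117, 135, 128 and 117 CPM at day 7 and 103, 103, 107 and 101 CPM at day 21. The days did not overlap, and the fall was 0.26 ± 0.06 on the log2 scale (adjusted p = 3.23e-04, edgeR's quasi-likelihood test). The 3 distal regions of Relb were weak, with log2 changes from -0.10 to 0.07. Map3k14, the kinase that starts the branch, had 72.2, 81.4, 78 and 77.8 CPM over its start (chr11:103267056-103267933) at day 7 and 65.2, 62.1, 63.7 and 57.5 CPM at day 21. Again no library of one day reached the other day, and the fall was 0.32 ± 0.06 (adjusted p = 1.02e-04).

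Of the 16 distal regions of Map3k14, 1 was higher and 1 lower, against 10.1% and 8.44% of all distal regions. The distal sum did not pass (log2 0.09, adjusted p = 0.162, edgeR's quasi-likelihood test). The higher region, chr11:103223407-103224070, inside the gene and 3.97 kb from its downstream end, had 7.97, 7.01, 7.25 and 7.15 CPM at day 7. At day 21 it had 10.5, 12.6, 12.9 and 11.5 CPM (log2 0.69 ± 0.14, adjusted p = 1.09e-04). A region 14.6 kb upstream (chr11:103281608-103282297) fell from 28.3 ± 3.14 to 22.9 ± 1.06 CPM (log2 -0.30, adjusted p = 0.0107), a call lost without day 7 replicate 3 (adjusted p = 0.114). The start region took 28.9 to 31% of the locus counts at day 7 and 23.3 to 25.4% at day 21. Nfkb2, which encodes p100/p52, had 1 dominant region, chr19:46304153-46306192, with 88.1 to 92.7% of the locus counts in every library. It holds all of the Nfkb2 promoter table starts but lies inside the annotated gene, so it was counted as distal. Its values were 92, 93.8, 90.2 and 95.8 CPM at day 7 and 95.3, 83.4, 101 and 88.4 CPM at day 21. The days overlapped (log2 -0.02 ± 0.06, adjusted p = 0.888), and none of the 4 Nfkb2 regions passed, also at an unadjusted p under 0.05 and by DESeq2.

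**Figure D1:**
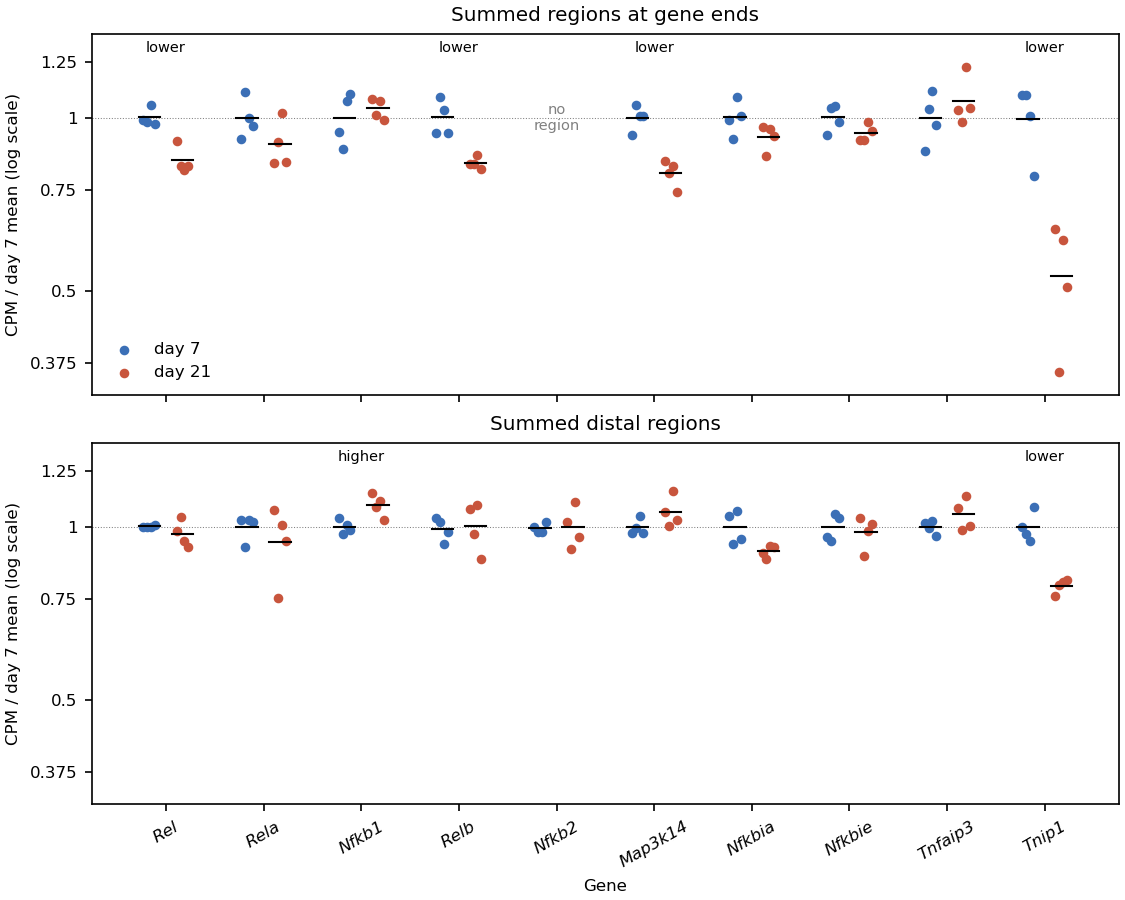
Accessibility of the 10 genes in each library, as CPM divided by the day 7 mean of that gene on a log scale, summed over regions at gene ends (top) and over distal regions (bottom). Points are libraries, black lines are means, n = 4 per day, and the words mark sums past an adjusted p of 0.05. At the ends Rel, Relb, Map3k14 and Tnip1 separate by day, with Tnip1 falling furthest, while in distal regions Tnip1 alone separates and passes.

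Both IκB genes lost accessibility over the start, and Nfkbia gained it beyond the other end. Neither gene-end sum passed. Nfkbia encodes IκBα, the fast feedback inhibitor. The region over its start, chr12:55491684-55493211, had 97.4, 87.1, 103 and 94.1 CPM at day 7 and 84.3, 72.9, 80.2 and 79.6 CPM at day 21. The days did not overlap, and it fell by 0.27 ± 0.06 on the log2 scale (adjusted p = 5.72e-04). The region 0.556 kb beyond the other end of this 3.24 kb gene, chr12:55488658-55489048, did the opposite, with 15.2, 18.1, 20.1 and 20.7 CPM at day 7 and 26, 25.1, 28.5 and 25.9 CPM at day 21 (log2 0.51 ± 0.10, adjusted p = 5.05e-05). Its share of the locus counts went from 7.46 to 10.5% at day 7 to 13.8 to 15.1% at day 21. Together they gave a gene-end sum that did not pass (-0.11, adjusted p = 0.113), while a sum over the start alone did (-0.27, adjusted p = 1.72e-04). Without day 7 replicate 2, the lowest of that day, the gene-end sum passed as well (-0.15, adjusted p = 0.0458).

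Of the 15 distal regions of Nfkbia, 2 were higher and 2 lower, against 10.1% and 8.44% of all distal regions. The higher ones lay upstream at 17.6 and 21.6 kb and were weak, for example 1.68 ± 0.618 CPM at day 7 and 3.12 ± 0.325 CPM at day 21 in chr12:55514055-55514435 (log2 0.87, adjusted p = 0.015). Without day 7 replicate 3 its adjusted p was 0.0802, and without day 21 replicate 3 it was 0.05. Downstream, chr12:55484423-55484854 fell from 10.5 ± 1.56 to 7.43 ± 0.861 CPM (log2 -0.49, adjusted p = 0.00995, or 0.0528 without day 7 replicate 1). The distal sum of Nfkbia was 91, 81.3, 92.9 and 82.8 CPM at day 7 and 78.4, 76.5, 80.6 and 80.3 CPM at day 21. All day 21 values were below all day 7 values, but at -0.14 ± 0.06 the sum did not pass (adjusted p = 0.0553). It did without day 7 replicate 2 (0.0297), day 7 replicate 4 (0.0465) or day 21 replicate 3 (0.0231).

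Nfkbie encodes IκBε. The region at its start, chr17:45555399-45555918, which holds the printed promoter, had 24.3, 38.9, 31.5 and 29.6 CPM at day 7 and 22.2, 19.6, 21.9 and 21.9 CPM at day 21. The day 21 libraries were all lower, and the region fell by 0.53 ± 0.10 on the log2 scale (adjusted p = 2.36e-05). Just upstream, chr17:45554433-45555263 did not differ past the threshold (31.9 ± 1.34 and 33.3 ± 4.3 CPM). The strongest region at the gene's other end, at 57.5 ± 2.94 and 58.2 ± 2.83 CPM, is shared with the end of Slc35b2. With it the gene-end sum was -0.09 (adjusted p = 0.193), and without regions at another gene's end it was -0.20 (adjusted p = 0.0229).

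Across the 8 members with a start in the promoter table, the region over the start was lower at 5 (Rel, Map3k14, Nfkbia, Nfkbie and Tnip1) and higher at 0. At an unadjusted p under 0.05 the counts were 6 lower and 0 higher, and by DESeq2 5 and 0. Rela (-0.19), Nfkb2 (-0.02) and Tnfaip3 (0.06) did not pass. Of all 9500 regions that hold the start of a protein-coding gene, 23.2% were lower and 4.33% higher. Of the 6 members with a κB match before the start, 4 had a lower start region and 2, Nfkb2 and Tnfaip3, did not pass.

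Tnip1 encodes ABIN1, a ubiquitin-binding partner of A20 that restrains NF-κB signalling. Both of its sums fell. All 12 tested regions had a log2 fold change below 0 (from -1.53 to -0.11), and 6 of them passed, against 9.85% of all regions lower. The region at its start, chr11:54962816-54963569, had 12.7, 12.7, 11.7 and 9.2 CPM at day 7 and 7.45, 4.21, 7.13 and 5.91 CPM at day 21. Each day 21 library was below each day 7 library (log2 -0.90 ± 0.15, adjusted p = 7.68e-06), which leaves 0.534 of the day 7 level. The nearest strong change inside the gene, chr11:54958480-54958926, 4.24 kb from the start, fell from 8.6 ± 0.84 to 5.17 ± 0.678 CPM (log2 -0.74 ± 0.16, adjusted p = 4.06e-04). The strongest region of the locus, chr11:54955648-54956356, chosen after its value was seen, went from 33.7 ± 2.36 to 28.7 ± 2.32 CPM, a smaller fall of 0.24 (adjusted p = 0.0322). The distal sum was 81, 79, 76.6 and 87.9 CPM at day 7 and 61.5, 64.3, 65 and 65.5 CPM at day 21. It separated the days (log2 -0.34 ± 0.06, adjusted p = 6.30e-06), the only distal sum of the 10 that was lower, against 11.4% of all genes.

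Tnfaip3 encodes A20, which removes and adds ubiquitin on signalling complexes below TNF and Toll-like receptors. Its regions changed in both directions, and neither sum passed. The gene-end sum had a log2 fold change of 0.10 (adjusted p = 0.296), which passed with offsets that follow the level (0.21, adjusted p = 0.0148) and with windows of 2 kb (0.25, adjusted p = 0.00457). Of 23 tested regions 5 rose and 6 fell, which is 47.8% against 19.3% of all regions. The start region, chr10:19014499-19015871, had 41, 49.1, 52.7 and 46 CPM at day 7 and 48.2, 45.8, 54.8 and 47.8 CPM at day 21. The days overlapped there (log2 0.06 ± 0.07, adjusted p = 0.629), and the region inside the gene 5.88 kb from the annotated start (chr10:19009229-19009838) did not pass either (38.9 ± 3.35 and 37.7 ± 2.54 CPM). The distal sum was 176 ± 4.74 CPM at day 7 and 185 ± 11.8 CPM at day 21 (log2 0.07, adjusted p = 0.278).

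The gains at Tnfaip3 sat at its downstream end and at the far upstream edge. Just beyond the downstream end, chr10:18999384-18999770 had 1.5, 0.85, 1.85 and 1.37 CPM at day 7 and 4.99, 3.73, 6.6 and 3.66 CPM at day 21. Its lowest day 21 value was above its highest day 7 value, and it rose by 1.73 ± 0.26 on the log2 scale, or 3.33-fold (adjusted p = 4.68e-07). Just inside the gene, chr10:19002050-19002471 had 1.33, 1.27, 1.94 and 2.36 CPM at day 7 and 3.52, 4.57, 6.66 and 3.91 CPM at day 21 (log2 1.39 ± 0.25, adjusted p = 1.83e-05). Between them, a region of 4 to 60 counts per library, chr10:19001293-19001499, rose from 0.507 ± 0.16 to 1.86 ± 1.15 CPM (log2 1.86 ± 0.43, adjusted p = 8.18e-04). A strong region 47 kb upstream at chr10:19061943-19062871, had 51.2, 47.2, 46.3 and 46.1 CPM at day 7 and 62.1, 52.8, 67.3 and 54.6 CPM at day 21 (log2 0.31 ± 0.07, adjusted p = 9.14e-04). It too separated the days. The last 2 were chosen after their values were seen.

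The losses at Tnfaip3 lay farther downstream and at intermediate upstream distances. Among 4 lower regions downstream, chr10:18964773-18965276, 35.9 kb beyond the gene, had 4.24, 4.46, 4.22 and 5.16 CPM at day 7 and 2.25, 1.93, 1.89 and 2.35 CPM at day 21 (log2 -1.10 ± 0.23, adjusted p = 1.83e-04). Its neighbour chr10:18959827-18960300 had 2.66 to 3.72 CPM at day 7 and 1.14 to 2.11 CPM at day 21 (log2 -1.01, adjusted p = 0.00423, or 0.054 with libraries thinned to equal depth). The lower regions 19.5 and 30.8 kb upstream had log2 changes of -0.52 and -0.78.

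**Figure D2:**
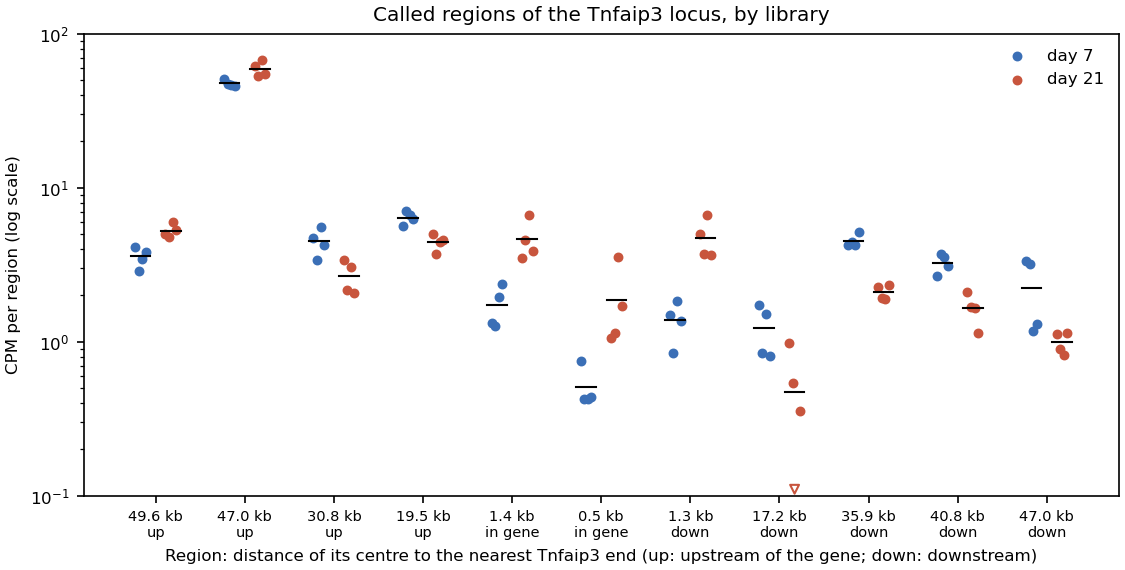
CPM per library, on a log scale, in the 11 Tnfaip3 regions past an adjusted p of 0.05, ordered from upstream to downstream by the distance of the region's centre to the nearer gene end (blue day 7, red day 21, n = 4 per day, black lines are means). The open triangle marks a library with 0 counts. The 3 regions within 1.35 kb of the downstream end all rise, and the 4 regions from 17.2 to 47 kb beyond it all fall.

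**Figure D3:**
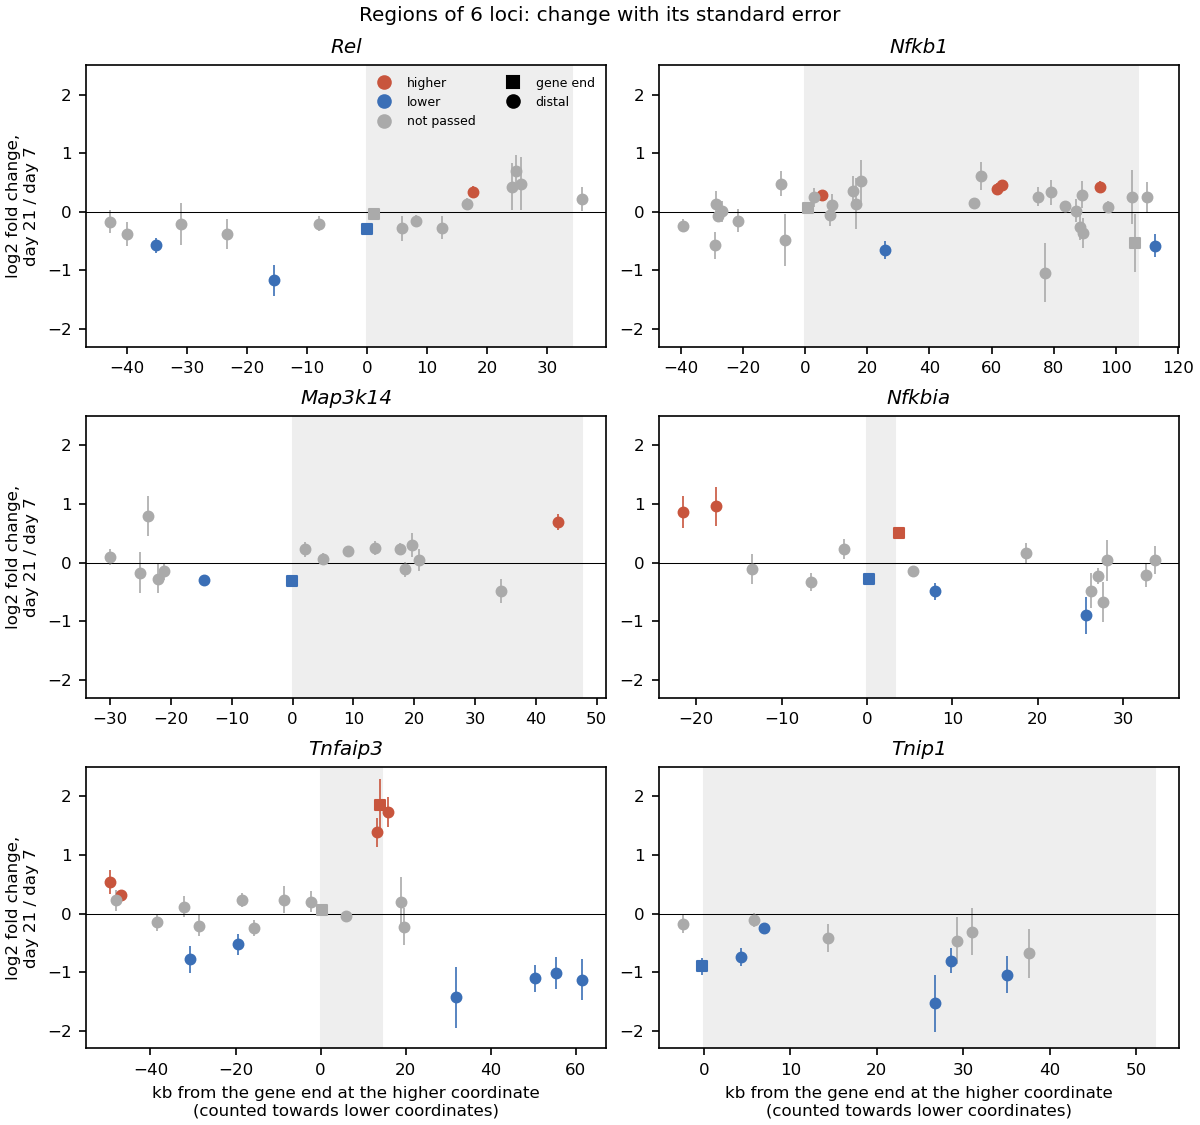
Log2 fold change (day 21 over day 7) with its standard error for every tested region of 6 loci, against the distance in kb from the gene end at the higher coordinate. Grey marks the gene body, squares are gene-end regions, and colour marks regions past an adjusted p of 0.05. Tnip1 lies below 0 throughout, and Tnfaip3 and Nfkbia hold changes in both directions. The Nfkb1 gains lie in the gene body, as do most regions of that locus.

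Over all 10 loci, 15 of 141 tested regions were higher and 24 lower at day 21 (edgeR's quasi-likelihood test, adjusted p under 0.05), which is 27.7% against 19.3% of all regions. The other 102 did not pass, and 3 had too few counts to test. The share called was highest at Tnip1 (50%) and Tnfaip3 (47.8%). In the remaining loci it ran from 0% at Nfkb2, where no region passed, to 35.3% at Nfkbia. In 38 of the 141 the ranges of both days were separate, as they were in 19.8% of all regions. At gene ends 2 of 16 were higher and 6 lower, against 6.64% and 16.6% of all regions at gene ends. Among 125 tested distal regions 13 were higher and 18 lower, against 10.1% and 8.44% of all distal regions. Most changes were small. Of the regions past the threshold, 3 at least doubled and 7 at least halved, and of these 10 all but 3 belonged to Tnfaip3 (3 higher, 4 lower), with 2 of Tnip1 and 1 of Rel. All 10 were weak, with day means of at most 4.75 CPM. Such regions were not counted over the whole series, so no share stands beside these counts. Distal regions inside the genes were higher at 7 and lower at 6 of 61 tested (median 0.09). Those outside were higher at 6 and lower at 12 of 64 (median -0.17). Tnip1 held 5 of the 6 lower regions inside, and Tnfaip3 held 6 of the 12 outside. The same split was not made over all genes, so it describes these regions only.

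Levels were ordered by CPM per kb of covered region at gene ends, over the range of the 4 day 7 libraries. Map3k14 (82.3 to 92.8) and Relb (81.3 to 94.2) were highest and overlapped. Rel (69.4 to 75), Nfkbia (54.9 to 64.4) and Nfkbie (39.7 to 44.6) followed without overlap. Tnfaip3 (26.5 to 33.7), Nfkb1 (23.1 to 28.7) and Rela (22.1 to 26.6) each overlapped the next, and Tnip1 (12.2 to 16.9) was lowest. At day 21 Tnip1 was at 5.59 to 9.9 CPM per kb, below the other 8.

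The balance between ends and distal regions does not depend on how libraries are scaled, so the log2 ratio of both sums (1 count added to each) was compared by an exact two-sided permutation test, whose smallest possible p is 0.0286. For Rel it was -0.04, -0.05, 0.06 and -0.06 at day 7 and -0.13, -0.35, -0.24 and -0.18 at day 21. For Map3k14 it was -1.30, -1.15, -1.28 and -1.19 at day 7 and -1.56, -1.56, -1.72 and -1.70 at day 21. Both separated the days, with differences of -0.20 and -0.40 at the smallest exact p of 0.0286, unadjusted over 9 comparisons. Relb (-0.27, exact p = 0.0571) and Tnip1 (-0.59, exact p = 0.0857) overlapped, as did the other 5. So 2 of 9 were lower without overlap, against 18.5% of all genes, and 0 were higher, against 5.4%. The median difference was -0.07 for the 9 and -0.11 for all genes.

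The wider pathway was counted over 67 genes in 6 lists. At gene ends 18 of 64 tested were lower and 2 higher, against 24.6% and 6.71% of all genes, with a median of -0.10 against -0.09 for all genes. With offsets that follow the level, 8 were lower and 12 higher, and over all genes the split moved from 3338 lower and 911 higher to 1646 and 1627. In distal regions 14 of 59 were lower and 10 higher, against 11.4% and 19.2% of all genes, with a median of 0.00 against 0.04.

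Among receptors, Tnfrsf1b, the TNF receptor 2, fell at its ends from 48.2 ± 1.28 to 35.5 ± 2.49 CPM (log2 -0.44, adjusted p = 1.89e-06). The sum of distal regions of Tlr3, the endosomal sensor of double-stranded RNA, rose from 74.4 ± 4.06 to 89.3 ± 4.15 CPM (log2 0.26). Tlr3 stands among the cDC1 markers as well, where the same rise is counted. Tnfrsf11a, which encodes RANK, was the only receptor higher at its ends (0.28, adjusted p = 0.0469), a call lost by DESeq2 (0.0919) and without any 1 of day 7 replicates 1 or 2 or day 21 replicates 2, 3 or 4 (up to 0.219). Of the adaptors and proximal kinases, 4 of 20 were lower at their ends, against 24.6% of all genes, and 0 higher, against 6.71%. The count higher was also 0 at an unadjusted p under 0.05 and by DESeq2. Tab3, an adaptor of the kinase TAK1, was at 55.6 ± 4.98 and 43.3 ± 1.91 CPM (log2 -0.35). Distal regions of Traf2 fell from 27 ± 2.86 to 12.5 ± 2.68 CPM (log2 -1.11, adjusted p = 4.96e-12) and those of Traf3, which together with Traf2 keeps NIK low, from 95.7 ± 6.36 to 77.3 ± 5.12 CPM (log2 -0.31), while those of Traf6 rose (0.27).

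The IKK complex genes Ikbkb, Chuk and Ikbkg had no call at ends or in distal regions, and none by DESeq2 (at an unadjusted p under 0.05, 1 distal sum was lower). Of the other IκB family genes, Nfkbib, Nfkbid and Bcl3 were lower at their ends (3 of 4, against 24.6% of all genes), with Bcl3, an atypical nuclear IκB, falling by 0.32 ± 0.07 on the log2 scale (adjusted p = 2.16e-04), and Nfkbiz did not pass (-0.13). Of the ubiquitin enzymes and A20 partners, 3 of 14 were lower and 1 higher at the ends, against 24.6% and 6.71% of all genes, the latter Tax1bp1 (0.16, adjusted p = 0.0339). This call was lost in 6 alternatives, among them leaving out day 7 replicate 1 or 4 or day 21 replicate 2 or 3 (0.106 to 0.165).

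Among NF-κB target genes, 6 of 13 were lower at the ends, against 24.6% of all genes, and 0 higher, against 6.71% (1 at an unadjusted p under 0.05 and 0 by DESeq2). Distal sums were lower at 6 of 14, against 11.4% of all genes, and higher at 3, against 19.2%. Tnfaip2 fell at its ends from 62 ± 6.49 to 46.8 ± 4.33 CPM (log2 -0.41). Ier3 fell at its ends (-0.36), where it shares a region with Flot1, and in distal regions (-0.34). Distal regions of Ccl22, a chemokine of mature dendritic cells, fell from 26.3 ± 0.998 to 14.1 ± 3.45 CPM (log2 -0.90), and those of Cflar, a caspase-8 inhibitor, from 130 ± 7.31 to 88.7 ± 5.96 CPM (log2 -0.55, adjusted p = 3.37e-12). Distal regions of Il1b rose from 159 ± 12 to 205 ± 11.7 CPM (log2 0.37, adjusted p = 3.06e-08), as did those of Ccl17 (0.32) and Ptgs2 (0.36).

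**Figure D4:**
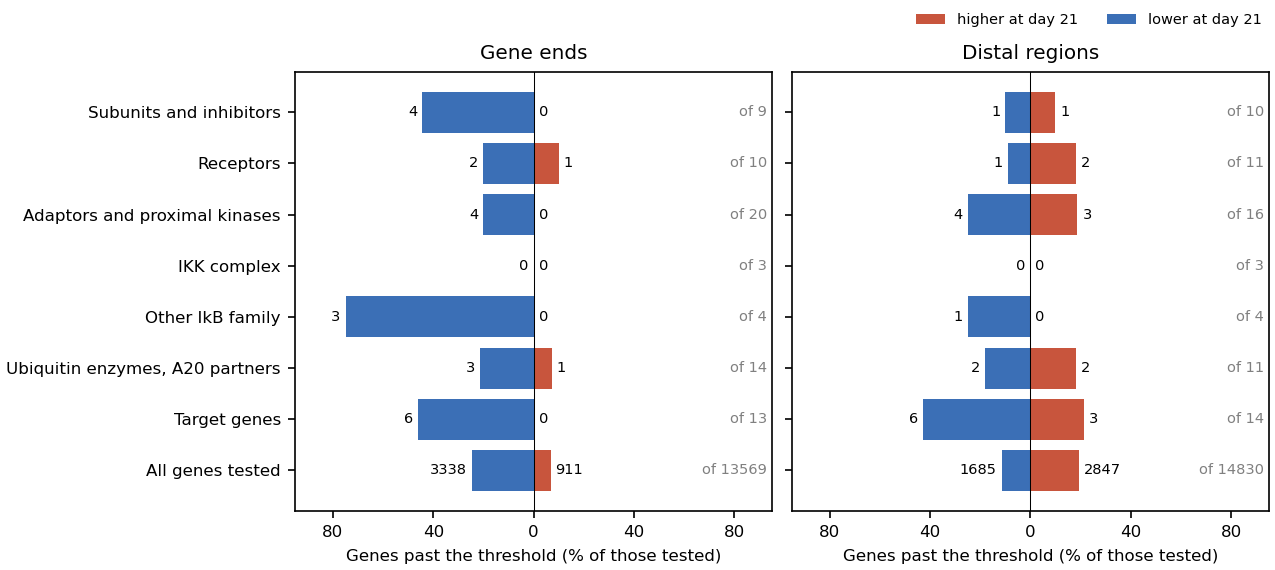
Percent of tested genes past an adjusted p of 0.05 that were higher (red, to the right) or lower (blue, to the left) at day 21, at gene ends and in distal regions, for the 10 NF-κB subunits and inhibitors, the 6 pathway lists and all genes. Numbers beside the bars are counts of genes and grey text gives the number tested. Lower calls outnumber higher ones at the ends of all genes (3338 and 911) as well as in most lists, and no IKK gene was called.

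Markers of other cell states moved over the same days. Their counts stand beside 24.6% lower and 6.71% higher of all gene-end sums, and 11.4% lower and 19.2% higher of all distal sums. Of 9 mature dendritic cell markers, 6 were lower and 1 higher at their ends, and the summed level was 231 to 248 CPM at day 7 and 162 to 177 CPM at day 21. In distal regions 6 of 8 were lower and 1 higher (781 to 822 and 687 to 761 CPM), with Il4i1 having no distal region. Ccl22 stands in this list as well as among the target genes. 5 of 11 T and NK cell markers were lower at their ends and 1 higher, with no region for Lck or Ncr1. In distal regions 5 of 12 were lower and 1 higher (350 to 377 and 305 to 331 CPM), with no region for Cd3d or Nkg7. Of 11 macrophage and monocyte markers 3 were higher and 0 lower at their ends (73.3 to 79.3 and 81.1 to 89.2 CPM). The count lower was 1 at an unadjusted p under 0.05 and 0 by DESeq2. At gene ends B cell and neutrophil markers had no call (5 and 4 tested), and 2 of 4 melanoma and 1 of 4 stromal markers were lower and 0 higher, with the same counts at an unadjusted p under 0.05 and by DESeq2. In distal regions 3 of 11 macrophage and monocyte markers were higher and 1 lower, and 1 of 4 B cell markers was higher and 1 lower. Of the distal sums, 2 of 4 melanoma and 1 of 7 stromal markers were lower and 0 higher. None of 5 neutrophil markers was called there (2 lower at an unadjusted p under 0.05). The part of these cells in the changes at the NF-κB genes was not tested.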

How the data were processed

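The data were 8 ATAC-seq libraries of sorted cDC1s, 4 per day, and the groups and replicate numbers came from the labels. The authors deposited raw counts per region over 128057 shared regions, with 1 column per library. The submitters' processing notes name MACS2 2.1.0.20150603, bedtools, SAMtools, cutadapt 1.9 and Picard 1.65, and the build mm10 (GRCm38). The aligner, read filters, peak merging and any shift for the transposase are not given in the sources used here, nor is the counting base of the coordinates, which are printed as deposited. A shift would move a count by a few bases.

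Genes came from the RefSeq table of GRCm38.p6 and promoter sequences from the RefSeq promoter table of that assembly. Tests on the counts used R 4.3.3 with edgeR 4.0.16 (filterByExpr, TMM factors from 0.978 to 1.01, glmQLFit and glmQLFTest with day as the only term, two-sided) over 121955 regions, 13569 gene-end sums and 14830 distal sums, with Benjamini-Hochberg adjustment over all of them and a threshold of 0.05. A gene-end sum adds all regions that overlap a gene's windows, so a region shared by neighbouring genes counts for each. Standard errors are the log2 fold change divided by the square root of F. The common coefficient of variation was 0.133. No 2 libraries of a day agreed within sampling noise (chi-square per degree of freedom from 2.16 to 3.01). The test was checked on simulated data.

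All 10 genes are given, with up to 2 regions per gene in each direction by smallest p, and up to 5 pathway genes in each direction at ends and in distal regions. Others are named as chosen after their values were seen or as list members. The genes and lists were chosen with earlier results of these data known. Alternatives were other scalings (total counts, DESeq2 1.42.0 size factors, offsets that follow the level from limma 3.58.1's loess), DESeq2's Wald test, no filter on low counts, thinning to 9440223 counts, a replicate block, each library left out, windows of 2 kb, a reach of 25 kb, the annotated start only, regions at no other gene's end, and the nearest gene end. The start sites of the promoter table as ends were added after seeing the data.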

Additional observations from a re-analysis of the deposited data

Results flagged for a closer look

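In 84 groups of 4 libraries checked, about 1 in 20 is expected by chance to hold a library that stands apart from the other 3, and 5 did. The Rel gene-end sum was 134 CPM in day 7 replicate 3, above the other 3 day 7 libraries. The Rela distal sum was 13.4 CPM in day 7 replicate 2, below the others. The Nfkb1 region chr3:135628042-135629265 was at 28.5 CPM in day 7 replicate 2, the lowest of that day. The Nfkbie start region chr17:45555399-45555918 was at 19.6 CPM in day 21 replicate 2, below the other day 21 libraries. The Map3k14 region chr11:103281608-103282297 was at 33.0 CPM in day 7 replicate 3, and its lower call was lost without that library (log2 -0.22, adjusted p = 0.114).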

How the results depend on the processing

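The lower gene-end sums of Rel, Relb, Tnip1 and Map3k14 and the lower distal sum of Tnip1 kept their call under every alternative run. With windows of 2 kb, 5 gene-end regions of the members were higher in place of 2, 1 gene-end sum was higher (Tnfaip3, 0.25) in place of 0, 1 ratio was lower without overlap in place of 2, and 4 other pathway genes were higher at their ends in place of 2. With offsets that follow the level, which remove the average shift of the sums, 1 member was higher at its ends (Tnfaip3, 0.21), 0 were higher and 2 lower in distal sums, and of the other pathway genes 12 were higher and 8 lower at ends and 6 higher in distal sums. The number of lower distal sums was also 2, with Nfkbia added, with total counts only, with the replicate block and when thinned. DESeq2's Wald test called 1 pathway gene higher at ends.

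Leaving out 1 library gave 0 to 1 members higher and 1 to 2 lower in distal sums, and 6 to 10 pathway genes higher in distal sums and 0 to 3 at ends. Small sums that did not pass changed sign (with 1 library left out, the Nfkb1 ends ran up to 0.10 and Relb distal up to 0.07): Nfkb1 ends -0.01 without day 7 replicate 2, Nfkbie distal 0.01 without day 21 replicate 2, Rel distal 0.04 with a reach of 25 kb, Tnfaip3 distal -0.01 with the level-following offsets, and Relb distal -0.02 with those offsets, without day 7 replicate 3 or without day 21 replicate 1, and -0.05 without day 21 replicate 3. The cause was not tested.

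Correlations between libraries of the same replicate number ran from 0.00619 to 0.0159, and those of other pairs from -0.0189 to 0.0176. Not every library correlated best with its own number, so a pairing by number was not established. With the replicate block, 5 gene-end sums were lower (Nfkbia added, adjusted p = 0.0441). Regions of a few CPM, as near the downstream end of Tnfaip3, rest on few counts.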
